A study of Sus scrofa with 3 samples.

Results

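LCK, CD3G, GNLY, FYN, CXCR4, CD53 and LAPTM5 are genes of T cells, of cytotoxic lymphocytes and of leukocytes as a whole. They were taken by symbol, as the probe sets whose platform annotation names only that gene, and they are 7 of the 6765 named genes on the array, read by 12 probe sets. They were chosen by their log2 ratios between these same 3 arrays, so their differences are described here and carry no test. A probe set is a group of short probes near the 3′ end of a transcript, and its signal is given on the log2 scale unless linear units are named. The lungs came from minipigs kept in specific pathogen-free conditions, with 1 array for each of 3 groups. The sham group is lung of a minipig with a sham operation. The operated group is the left lung of a minipig in which surgeons blocked the artery to that lung and later released it, leaving the bronchus alone, so that the lung was ventilated throughout. The non-operated group is the right lung after that same ischemia-reperfusion (I-R) procedure. The strain, age and sex of the animals, the times of occlusion and reperfusion, whether RNA was pooled, and whether both I-R lungs came from the same minipig are not stated in the labels.

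T cells recognise antigen through a receptor that signals by way of the CD3 chains. The kinase LCK phosphorylates those chains, and its relative FYN can act beside it, after which adaptor proteins such as LAT carry the signal on. Cytotoxic T cells and natural killer (NK) cells store killing proteins in granules, among them granulysin, the product of GNLY, known in pig as NK-lysin. CXCR4 is the receptor for the chemokine CXCL12 and is carried by most leukocytes, CD53 is a tetraspanin of the leukocyte surface, and LAPTM5 is a lysosomal membrane protein of blood cells. The lung holds T cells in its walls, its vessels and its lymphoid follicles. In RNA from whole tissue, fewer cells of a type and less RNA per cell cannot be told apart.

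With 1 array per group, no difference has a spread between animals behind it, and sham against I-R also differs by animal, so that operation and animal cannot be told apart. Both comparisons with sham use the same sham array. Values at or below the median of an array, 7.33 for sham and 7.31 for each I-R lung, were set to that floor, and a ratio with 1 side at the floor is a lower bound. The probe sets of a gene read on the same arrays give the only internal error. Their ratios had a pooled SD of 0.39 in the operated lung against sham over 801 genes, 0.41 in the non-operated lung against sham over 783 and 0.22 between the I-R lungs over 820. The labelled tissue was borne out by SFTPC, a surfactant protein gene of the alveolar epithelium, with signals of 14.44 in sham, 14.56 in the non-operated and 14.52 in the operated lung. SFTPA1 was also near level, at 12.13, 11.97 and 12.23 in that order. AGER, another lung epithelial gene, was below the floor in sham at 5.01, against 8.27 and 8.13. The check thus speaks to the tissue and not to an equal content of epithelium. All counted genes together had a median log2 ratio of -0.11 in the operated and -0.10 in the non-operated lung against sham, and of -0.02 between the I-R lungs.

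LCK and CD3G had the largest deficits of the 7 genes in both I-R lungs, CD53 was about 2-fold lower, CXCR4 and LAPTM5 were lower by less than 2-fold, and GNLY was higher. FYN was the member on which the I-R lungs differed most. In the operated lung 3 of the 7 genes were at least 2-fold lower than in sham and 1 was at least 2-fold higher. Over all 5097 counted genes 8.79% were at least 2-fold lower and 8.65% at least 2-fold higher. In the non-operated lung 4 of the 7 were at least 2-fold lower and 1 was higher, beside 8.55% and 8.96% of 5113 genes. The median of the 7 ratios was -0.69 in the operated and -1.04 in the non-operated lung. All 7 genes passed the floor in each comparison, GNLY only through its I-R signals in the comparisons with sham, and these shares are background to genes that were picked with their ratios known.

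**Figure D1:**
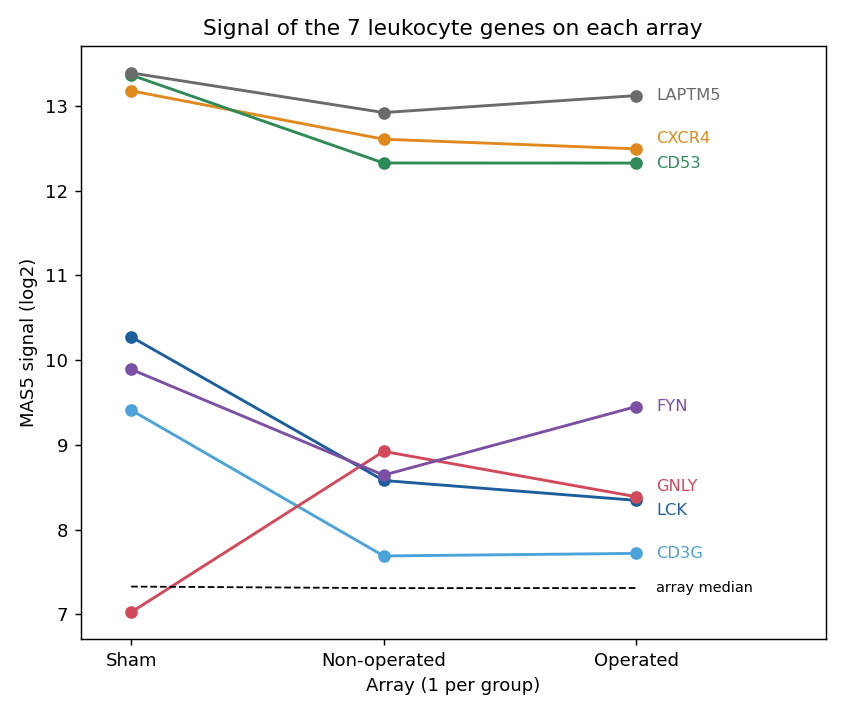
The y axis is the MAS5 signal (log2) of the probe set that stands for each gene, on the sham, non-operated and operated arrays along the x axis, with 1 array per group. Lines join the points of a gene, and the dashed line is the median of each array. LCK starts at 10.27 and CD3G at 9.41 in sham and both lie lower in the I-R lungs, GNLY goes the other way from 7.02, and CXCR4, CD53 and LAPTM5 stay above 12 throughout.

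Among the T cell genes, LCK (Entrez gene 100233188) had a signal of 10.27 in sham, 8.58 in the non-operated and 8.35 in the operated lung, which is 1239, 383 and 325 in linear units. The sham array was the high one, and the operated lay at -0.23 against the non-operated. LCK was 3.81-fold lower in the operated lung, a log2 ratio of -1.93, and 3.24-fold lower in the non-operated lung, at -1.70. Of all counted genes, 1.65% had a lower ratio than LCK in the operated lung and 2.31% in the non-operated lung. Its other probe set, which by its suffix reads alternative transcripts, lay below the floor on all 3 arrays, with signals of 6.44 in sham, 4.0005 in the non-operated and 5.40 in the operated lung.

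CD3G encodes the gamma chain of CD3 and was read by 1 probe set (Entrez gene 494013). Its signal was 9.41 in sham, 7.69 in the non-operated and 7.72 in the operated lung. It was 3.23-fold lower than sham in the operated lung, at -1.69, and 3.30-fold lower in the non-operated lung, at -1.72. The I-R lungs differed by 0.03, well inside the probe set SD of 0.22, and both lay close above the floor of 7.31. LCK and CD3G, a kinase and one of the chains it acts on, had ratios within 0.24 of each other in the operated lung and within 0.03 in the non-operated lung.

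By its brighter probe set, FYN did not follow LCK in the operated lung. That probe set (Entrez gene 791125), which by its suffix also reads alternative transcripts, had a signal of 9.89 in sham, 8.64 in the non-operated and 9.45 in the operated lung. The non-operated lung was 2.38-fold lower than sham, at -1.25, and the operated lung 1.36-fold lower, at -0.44, about the size of the probe set SD. The 2-fold call in the non-operated lung was not kept when both FYN probe sets were averaged, at -0.71, or with the floor at the 75th percentile, at -0.67. Each of these is a lower bound on the deficit, since the non-operated signal then lay at the floor. With averaged probe sets the operated lung lay at the floor as well, also at -0.71, so that the I-R lungs could not be compared. A difference between genes within a comparison does not move when an array is rescaled by a constant: the ratio of LCK lay below that of FYN by 1.49 in the operated lung and by 0.45 in the non-operated lung. The other FYN probe set was below the floor on all 3 arrays, at 6.15, 5.26 and 5.08 in the order sham, non-operated, operated, and there the operated array was the lowest. Of 10 genes listed for the Src kinase family and its regulator, the array read 3, with 1 at least 2-fold lower in the operated and 2 in the non-operated lung. The third, LYN, a kinase of B cells and myeloid cells, was at -0.11 in the operated and -0.09 in the non-operated lung. The list medians of -0.44 and -1.25 are the ratios of FYN itself.

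GNLY was the only member higher than sham. Its single probe set (Entrez gene 396869) had a signal of 7.02 in sham, below the floor of 7.33, against 8.92 in the non-operated and 8.39 in the operated lung. GNLY was therefore at least 2.09-fold higher in the operated and at least 3.02-fold higher in the non-operated lung. Taken as deposited, without a floor, the ratios were 1.36 and 1.90. The non-operated lung had the highest signal, with the operated lung at -0.54 against it, and 2.83% of genes had a lower ratio between the I-R lungs. The log2 ratio of GNLY exceeded that of LCK by at least 2.99 in the operated and by at least 3.29 in the non-operated lung.

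The 3 leukocyte genes had far brighter signals than the T cell genes, though signals of different probe sets are not a measure of relative abundance. CXCR4 (Entrez gene 396659) was at 13.18 in sham, 12.61 in the non-operated and 12.49 in the operated lung, brighter than at least 98.2% of probe sets on each array. It was 1.61-fold lower in the operated lung, at -0.69, and 1.49-fold lower in the non-operated lung, at -0.57. LAPTM5 (Entrez gene 100624193) was at 13.39 in sham, 12.92 in the non-operated and 13.12 in the operated lung. Its ratio of -0.27 in the operated lung was smaller than the probe set SD, and the ratio of -0.47 in the non-operated lung was slightly larger than it. In the operated lung 40.02% of all genes had a lower ratio than LAPTM5, and its dimmer probe set gave -0.09 and -0.02.

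CD53 was the member whose probe sets differed most. The brightest of 3 (Entrez gene 100152398) had a signal of 13.36 in sham, 12.33 in the non-operated and 12.33 in the operated lung, and stood for the gene at -1.04 in both comparisons with sham, just past 2-fold. The next read 11.84 in sham, 9.56 in the non-operated and 9.91 in the operated lung, which is 4.86-fold and 3.82-fold lower. The dimmest read 9.88, 9.61 and 9.41 in that order of arrays, which is 1.20-fold and 1.39-fold lower. All 3 had their highest signal in sham, while the size of the deficit ran from -0.27 to -2.28 in the non-operated lung. That range of 2.01 exceeded the range of 98.7% of genes with several probe sets, so the 2-fold call of CD53 depends on which probe set is read. The cause was not tested.

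**Figure D2:**
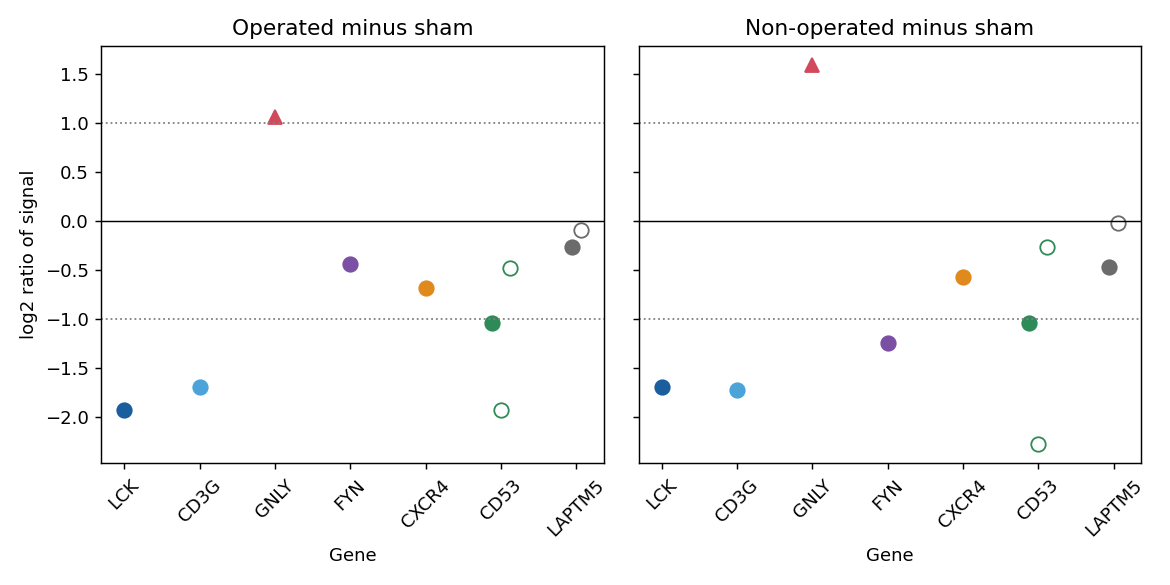
Each point is the log2 ratio of signal of a probe set above the floor, for operated minus sham (left) and non-operated minus sham (right), by gene along the x axis. Filled points stand for the gene, open points are its other probe sets, triangles are lower bounds and dotted lines mark 2-fold. The CD53 points spread from -0.47 to -1.93 on the left and from -0.27 to -2.28 on the right, and the GNLY triangle is the only mark above 0.

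By the probe sets that stand for the genes, LCK and CD3G had larger deficits than the 3 brighter leukocyte genes. FYN had a larger deficit than all 3 in the non-operated lung only. There its gap to CD53 was smaller than the probe set SD of 0.41. LCK lay below CD53 by 0.89 in the operated and 0.66 in the non-operated lung, below CXCR4 by 1.24 and 1.12, and below LAPTM5 by 1.66 and 1.23. CD3G lay below the same 3 genes by 0.65 to 1.42 in the operated and by 0.68 to 1.25 in the non-operated lung. FYN lay above CXCR4 by 0.25 and above CD53 by 0.60 in the operated lung, and below them by 0.68 and 0.21 in the non-operated lung. It lay below LAPTM5 by 0.17 in the operated and 0.78 in the non-operated lung. With the CD53 probe set that read -1.93 and -2.28 in place of the brightest, the order of LCK and CD53 in the non-operated lung turns, and in the operated lung they are equal to the second decimal. CD3G and FYN then lie above CD53 in both lungs. With the dimmest CD53 probe set, at -0.47 in the operated lung, FYN at -0.44 is nearly level with CD53 there.

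A list of T cell surface genes, drawn up with earlier results known, also holds CD3G. Of 20 genes on that list 13 were on the array and 8 were above the floor, of which 4 were at least 2-fold lower in each I-R lung and 0 were higher. Beside this and every other list count stand the shares of all counted genes. These were 8.79% lower and 8.65% higher in the operated lung, and 8.55% and 8.96% in the non-operated lung. The list had a median ratio of -1.03 in the operated and -0.90 in the non-operated lung. Without CD3G, 3 of 7 were at least 2-fold lower in each, with medians of -0.80 and -0.73. CD3D, the delta chain of CD3, had a signal of 8.75 in sham and was below the floor in both I-R lungs, at least 2.71-fold lower in each. CD247, the zeta chain, was at least 2.78-fold lower in the operated and 2.31-fold lower in the non-operated lung. CD2, an adhesion receptor of T and NK cells, was 2.42-fold and 2.11-fold lower. The next genes are named with their values already seen. The epsilon chain CD3E was at -0.76 and -0.68, CD8A of cytotoxic T cells at -0.80 and -0.73, and the interleukin 7 receptor IL7R at -0.44 in each. CD8B was below the floor in sham at 6.92 and only just above it in the I-R lungs, at 7.63 in the non-operated and 7.34 in the operated lung. The helper T cell co-receptor CD4, with CD27, CTLA4, CD40LG and CCR7, was below the floor on all 3 arrays.

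Signalling genes downstream of the receptor were likewise lower, with exceptions. Of 18 genes 10 were on the array and 8 above the floor, of which 5 in the operated and 6 in the non-operated lung were at least 2-fold lower than in sham, with 0 higher and medians of -1.40 and -1.36. LCK and FYN are among them, and without these the count was 4 of 6 in each lung. RASGRP1, which activates Ras in T cells, was at least 4.44-fold lower in each I-R lung. SH2D1A, the adaptor SAP of T and NK cells, was at least 3.90-fold lower in each. LAT was 3.34-fold lower in the operated and 2.79-fold in the non-operated lung. The exchange factor VAV1 was at -1.05 and -1.18, and the members above 0 were LCP2, an adaptor shared with myeloid cells and platelets, at 0.46 and 0.38, and the phospholipase PLCG1 at 0.26 and 0.44. Of 13 T cell transcription factors 4 were on the array and 3 above the floor, with medians of -0.18 and -0.61. LEF1 was at -1.20 and -0.99, SATB1 at -0.18 and -0.61 and GATA3 at 0.39 and 0.31, with a second GATA3 probe set at -0.02 and 0.31.

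GNLY had no companion beyond 2-fold in the list of cytotoxic granule and NK cell genes. Of 19 genes 8 were on the array, with 4 above the floor for operated and 5 for non-operated against sham. The list had medians of 0.15 and 0.11, or 0.085 and 0.077 without GNLY. Without GNLY its summed linear signal was 3363 in sham, 3619 in the non-operated and 3545 in the operated lung. That sum rested largely on FCGR3A, the brightest gene, at 11.18 in sham, 11.36 in the non-operated and 11.26 in the operated lung. GZMH, a granzyme, was at -0.03 and 0.11, the receptor KLRK1 at 0.22 and -0.05, and the Fc receptor FCGR3A, also found on macrophages, at 0.08 and 0.18. The pore-forming gene PRF1 was below the floor on all 3 arrays, as were FASLG and IFNG. CTSW, a cathepsin of cytotoxic cells, was above the floor only in the non-operated lung, at 7.37. Apart from GNLY, these genes are named after their values were seen.

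**Figure D3:**
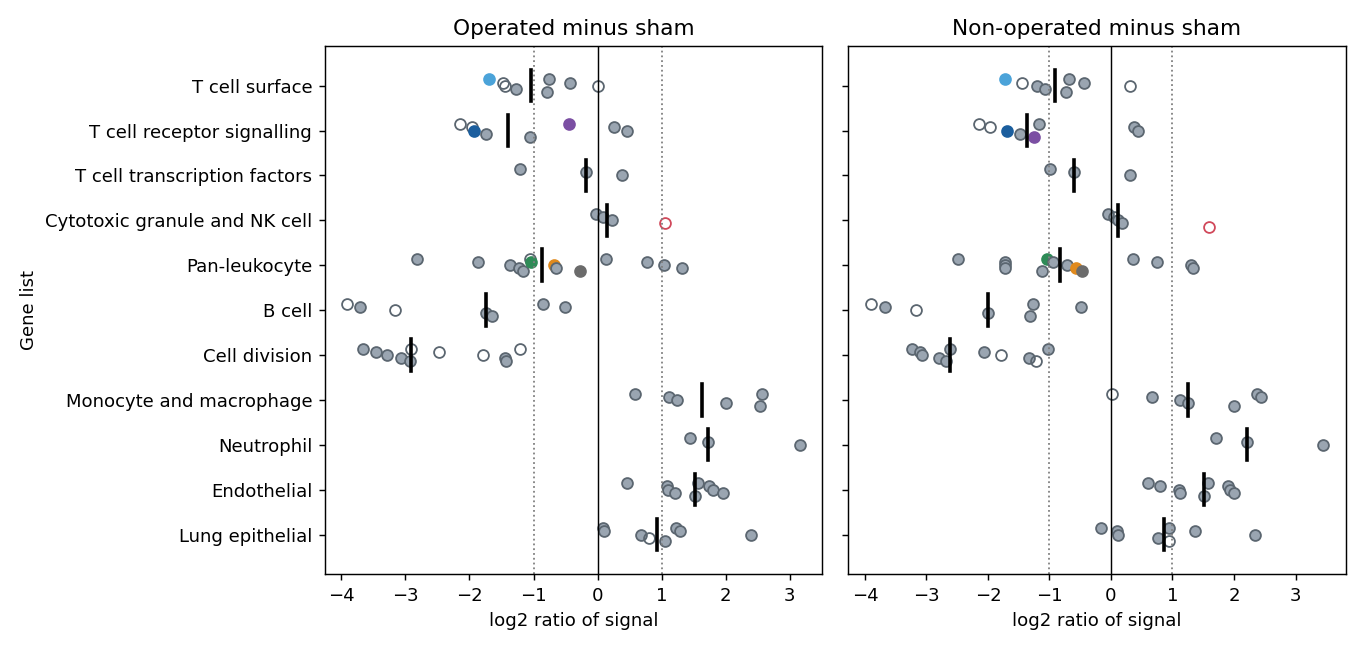
Each point is the log2 ratio of signal of a listed gene above the floor, for operated minus sham (left) and non-operated minus sham (right), with lists along the y axis. Black bars are list medians, hollow points are lower bounds, coloured points are the 7 genes and dotted lines mark 2-fold. Medians of the T cell, B cell and cell division lists lie below 0, those of the macrophage, neutrophil, endothelial and epithelial lists above 0, and the pan-leukocyte list has genes past 2-fold on both sides.

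The pan-leukocyte list, which holds CD53, LAPTM5 and CXCR4, had members on both sides. Of 26 genes 15 were on the array and 14 above the floor, of which 7 were at least 2-fold lower and 2 higher in the operated lung, and 6 lower and 2 higher in the non-operated lung. The medians were -0.86 and -0.83, and without the 3 members -1.06 and -0.95. CORO1A, an actin-binding protein that T cells need to survive, was 7.08-fold and 5.58-fold lower by its brightest probe set. Its other sets read -3.12 and -3.43, and -0.30 and -0.76, so that its 2-fold call also depends on the probe set. PTPRCAP, a partner of CD45 in lymphocytes, was 3.63-fold and 3.28-fold lower, RAC2 2.57-fold and 3.30-fold, and PTPRC, which encodes CD45, 2.34-fold and 3.31-fold. The 2 higher genes, named after their values were seen, encode signalling adaptors of myeloid and NK cells. TYROBP was at 1.32 and 1.34 and FCER1G at 1.04 and 1.31. ITGB2, the beta 2 integrin chain, was at 0.78 and 0.75, and SPI1, a myeloid and B cell transcription factor, at 0.13 and 0.36.

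CXCR4 lay below sham together with its ligand, whose probe sets differed. The brighter CXCL12 probe set had a signal of 10.69 in sham, 8.80 in the non-operated and 8.64 in the operated lung, 4.15-fold lower in the operated and 3.71-fold lower in the non-operated lung. The other read 9.15 in sham, 8.14 in the non-operated and 9.02 in the operated lung, ratios of -1.01 in the non-operated and -0.13 in the operated lung. By that set CXCL12 was not past 2-fold in the operated lung, and its deficit there was smaller than that of CXCR4. Of 9 genes above the floor on the list of the CXCR4 axis and lymphocyte attraction, 3 were at least 2-fold lower in each I-R lung, with 1 higher in the operated and 0 in the non-operated lung. The list medians were -0.36 and -0.21. The other lower genes were the lymphoid tissue chemokines CCL19, at -1.79 and -2.04, and CXCL13, at -4.91 and -4.28. The higher gene was DPP4, a protease that can inactivate CXCL12, at 1.11 and 0.84. CXCL9 and CCL5, which attract activated T cells and are named after their values were seen, were at -0.06 and -0.12 in the operated and at -0.09 and 0.23 in the non-operated lung.

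Markers of other cell types also differed from sham, in both directions. B cell genes had a median of -1.73 in the operated and -2.004 in the non-operated lung, with 5 and 6 of 7 at least 2-fold lower. Their summed linear signal was 32012 in sham, 15248 in the non-operated and 15434 in the operated lung. The sum rested largely on JCHAIN, the brightest of them, at 14.15 in sham, 13.66 in the non-operated and 13.64 in the operated lung. JCHAIN had the smallest deficit on the list, at -0.51 in the operated and -0.49 in the non-operated lung. Cell division genes had medians of -2.91 and -2.61 with 11 of 11 lower in each, and a summed signal of 23556, 4996 and 4229 in that order of arrays. The T cell surface list summed to 5002, 2644 and 2515. In the opposite direction, monocyte and macrophage genes had medians of 1.63 and 1.25 with 5 of 6 and 5 of 7 genes at least 2-fold higher and a summed signal of 9035, 26859 and 26792, while CD14 and SIGLEC1 were below the floor on all 3 arrays. The neutrophil list rested on 3 calgranulin genes, with medians of 1.72 and 2.21, all 3 at least 2-fold higher and a summed list signal of 1142, 8440 and 6876, while ELANE, LTF and MMP9 were below the floor on all 3 arrays. Endothelial genes had medians of 1.53 and 1.51, with 8 and 7 of 9 higher and sums of 8592, 25434 and 24515. Lung epithelial genes had medians of 0.93 and 0.86, with 4 and 2 of 8 higher and sums of 37208, 51642 and 54596. The part of these markers in the ratios of the T cell and leukocyte genes was not tested.

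Between the I-R lungs, 0 of the 7 genes differed by 2-fold. Over all 4944 counted genes 0.182% were at least 2-fold lower and 0.0607% at least 2-fold higher in the operated lung. The central 95% of all genes ran from -0.56 to 0.50. Operated minus non-operated, the ratio was 0.81 for FYN, 0.20 for LAPTM5 and 0.03 for CD3G. It was below 0 for GNLY at -0.54, for LCK at -0.23 and for CXCR4 at -0.11, and CD53 was level to the second decimal. FYN alone lay outside that central range. Its ratio ranked 13 of 4944, and it was the only member past 1.5-fold, as were 1.31% of all genes in that direction. With the floor at the 75th percentile the FYN difference was at least 0.23, since the non-operated signal lay at that floor. The rank rests on 1 probe set, since the other was below the floor and read -0.18. PTPRC, which encodes the phosphatase CD45 that activates LCK and FYN, lay on the side of FYN at 0.50. Its partner PTPRCAP was at -0.14, below 0 as LCK was. That is inside the probe set SD of 0.22, which LCK at -0.23 barely exceeded. A link between these genes was not tested.

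**Figure D4:**
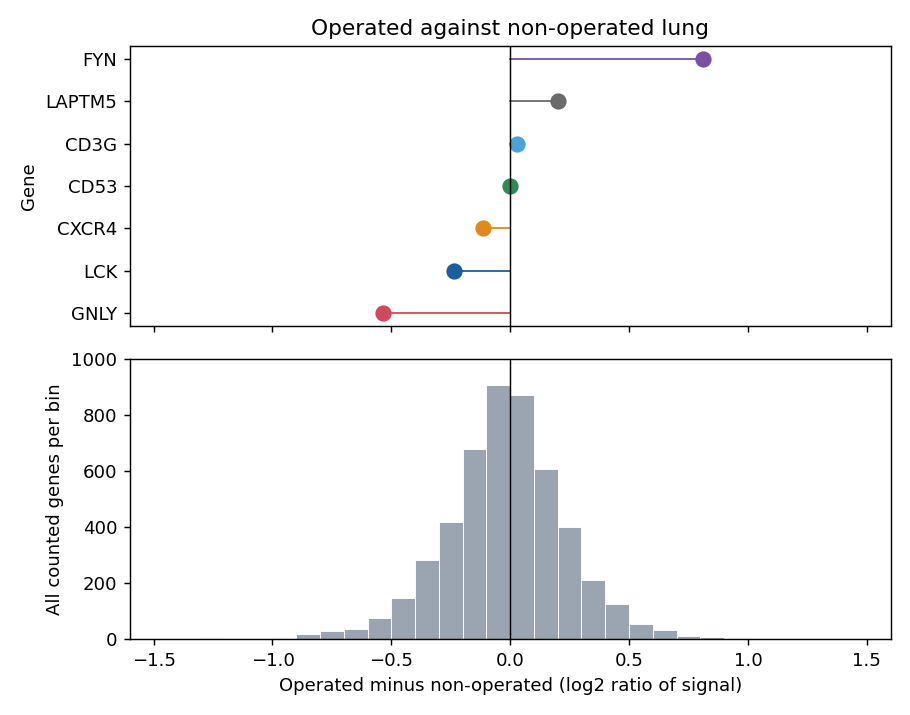
The upper panel gives the log2 ratio of signal, operated minus non-operated lung, for each of the 7 genes, and the lower panel counts all 4944 genes in bins of the same ratio. FYN at 0.81 lies in the right tail and GNLY at -0.54 toward the left tail, while LCK, CXCR4, CD53, CD3G and LAPTM5 lie between -0.23 and 0.20.

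Genes with the most similar pair of ratios against sham were found by the distance between the pairs, over 2719 genes (2720 for LAPTM5) that differed from sham by at least 0.5 in either lung. Both ratios share the sham array, so a match covers 3 arrays only. The nearest to LCK were VRK1 at a distance of 0.05 and the monocyte chemokine CCL2 at 0.06, and 103 genes lay within 0.5. For CD3G the second nearest was CDH11 at 0.03, after a gene listed only by a locus number, with 128 genes within 0.5. FYN was nearest to RPF1 and PNMA1 at 0.14 each. GNLY is given no match, since its ratios are lower bounds. The patterns of CXCR4, CD53 and LAPTM5 were common, with 1038, 589 and 696 genes within 0.5, and the nearest to CXCR4 and LAPTM5 were TDP2 and CCZ1. The nearest to CD53, PSRC1 and FAM107B, reached the floor on at least 1 array, so their ratios are bounds, as are those of the gene nearest to CD3G.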

How the data were processed

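The deposited table holds log2 signals of 23999 probe sets on 3 arrays; the authors made them with MAS5, per the submitters' processing notes, which scales each array on its own. The log2 scale was read from the values, and no source used here gives the MAS5 version or its target. After 64 reporter controls were left out, 10069 of 23935 probe sets had 1 gene in the platform annotation, 198 had several and were not named, and 13668 are unnamed here. All 7 genes matched the RefSeq gene table by identifier. No further scaling was applied. The brightest probe set by mean stood for a gene, a gene counted when above the array median on at least 1 array of a comparison, and 2-fold was the threshold. The number of arrays limits the precision, and no p-values are given.

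The genes, the 13 lists and the rules were chosen with earlier results of these data known. Named genes are the 7 members, up to 4 genes with the largest ratios past 2-fold from each list, tissue markers, and the 2 nearest genes by pattern for each member. Any other gene named was chosen after its value was seen. The counting was tested on simulated data. Python 3.11.15, numpy 2.4.6 and pandas 2.3.3 were used.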

Additional observations from a re-analysis of the deposited data

How the results depend on the processing

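No paired analysis was possible because each group has 1 array, so no array could be left out either. The 8 alternatives to scaling, floor, pseudocount and probe set choice gave 155 ratios for the 7 genes, of which 142 moved by less than the pooled SD between probe sets, 13 moved further and 0 changed from a 2-fold call to the opposite sign. In both comparisons with sham, LCK, CD3G, FYN, CXCR4, CD53 and LAPTM5 stayed below 0 and GNLY above 0 under each alternative that gave them a value. With the floor at the 75th percentile, the I-R signals of LCK and CD3G and the non-operated signal of FYN lie at the floor. The ratios that use them are then lower bounds. GNLY lies below that floor on all 3 arrays and was not counted, which left 0 genes higher in either I-R lung. Under that floor 2 genes were at least 2-fold lower in the non-operated lung and CD3G was at -0.19 in each. FYN was at -0.67 in the non-operated lung and at 0.23 between the I-R lungs. With a pseudocount of 100 linear units, 0 genes were 2-fold higher in the operated lung. With the dimmest probe set, 1 gene was 2-fold lower in each I-R lung, since LCK and FYN then lie below the floor and CD53 is at -0.47 and -0.27. When probe sets of a gene were averaged, the dim sets took the I-R signals of LCK and FYN below the floor, so that their ratios are lower bounds. LCK was then at -1.05 and FYN at -0.71 in each I-R lung, which left 3 genes 2-fold lower in the non-operated lung. At a 4-fold threshold 0 genes were lower and 0 higher in either lung, and at 1.5-fold 1 gene, FYN, was higher in the operated than in the non-operated lung. Of 308 list medians 35 moved by more than that SD. In the operated lung the T cell receptor signalling median of -1.40 was -0.24 with the 75th percentile floor and -0.68 with the pseudocount, and the T cell surface median of -1.03 was -0.49 and -0.53. The T cell transcription factor median of -0.18 was -1.20 with averaged probe sets. That value is the ratio of LEF1 alone, since averaging took GATA3 and SATB1 below the floor. The CXCR4 axis median of -0.36 was -1.24 with no floor. Under median or quantile scaling 0 list medians against sham changed sign. A signal near the floor, as for CD3G in the I-R lungs and GNLY in sham, limits these ratios.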
